A study of Oryza sativa with 12 samples.

Results

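In rice leaves at the booting stage, 42 long non-coding RNAs (lncRNAs) had higher values after cold treatment in both cultivars examined, and were chosen by a rule on those same measured values. The values are FPKM, a fragment number scaled for transcript length and library size. A member is a transcript that is the only one listed for its locus, and it has a mean of at least 0.5 FPKM over the 6 libraries of each cultivar. Its log2 change, the log2 of the cold mean plus 0.1 FPKM minus the log2 of the control mean plus 0.1 FPKM, is at least 0.5 in each cultivar. The tables listed 1485 lncRNA transcripts, of which 828 were the only transcript of their locus. Of these, 499 passed the floor of 0.5 FPKM in both cultivars, and 42 of the 499 (8.42%) passed the limit on the change. The members were thus 2.83% of all listed transcripts. Because the direction was fixed by this choice, the cold values below are descriptions without a test.

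The libraries fell into 4 groups of 3, all from leaf tissue of Oryza sativa. They were Dongnong422 plants given cold, Dongnong422 controls, Kongyu131 plants given cold and Kongyu131 controls. Plants grew under natural conditions, and the cold groups were held at 17 °C in an incubator for 13 days, with 16 h of light a day. The labels repeat that treatment for the controls too and state no separate control temperature. Cold therefore cannot be told apart from the incubator. A leaf was taken from each bucket of plants and replicates are not described further, so a p-value here covers no more than the variation among these samples, some or all of which may be technical. The tables hold no protein-coding genes, so the leaf label was not checked against marker genes. More RNA per cell cannot be told apart from more cells of a type, nor less RNA per cell from fewer cells.

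LncRNAs are transcripts without a long open reading frame. Long intergenic RNAs (lincRNAs) come from between genes, while antisense lncRNAs are read from the strand opposite to another gene, and known examples of both kinds act on chromatin, on transcription of nearby genes or as decoys for small RNAs. The best studied cold-linked lncRNAs of plants, COOLAIR and COLDAIR of Arabidopsis, act at the floral repressor gene FLC during vernalization. In rice, the booting stage is when pollen develops inside the leaf sheath, and low temperature at that stage is known to reduce grain set. The identifiers of the members carry no gene symbol and 0 matched the rice gene table, so no function, position, sequence or opposite gene is given for them.

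The absolute depth behind the values is unknown. Whole-fragment steps in the lowest values gave estimates of relative depth, with Dongnong422 cold replicate 1 set to 1. They ran from 0.732 to 1 in cold Dongnong422 libraries, from 0.699 to 0.975 in Dongnong422 controls, from 0.796 to 0.868 in cold Kongyu131 libraries and from 0.656 to 0.702 in Kongyu131 controls. By these estimates the 3 cold Kongyu131 libraries were all deeper than the 3 Kongyu131 controls. The part of depth in the cold values of that cultivar was not tested.

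The members were spread over both classes of lncRNA and had a median level close to that of the lncRNAs they were drawn from. There were 22 lincRNAs and 20 antisense lncRNAs, so antisense transcripts made up 47.6% of the members, 37.9% of the 499 and 42.5% of the 1441 lncRNAs with a mean of at least 0.1 FPKM. The median of the members' mean levels over the 12 libraries was 1.86 FPKM, against 1.85 FPKM for the 499. Levels were below 1 FPKM for 6 members, from 1 to 5 FPKM for 33 and from 5 to 10 FPKM for 2. A single member, LNC_000791, was above 10 FPKM.

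The median level of the 42 lncRNAs was higher in every cold library than in every control, while the medians of the 499 from which they were drawn overlapped between cold and control. The members' medians were 2.23, 2.80 and 2.36 FPKM in the cold Dongnong422 libraries and 1.06, 1.33 and 0.953 FPKM in the Dongnong422 controls. They were 2.03, 2.03 and 2.39 FPKM in the cold Kongyu131 libraries and 1.08, 1.07 and 1.03 FPKM in the Kongyu131 controls. The groups did not overlap, which the choice of members largely fixes. The medians of the 499 averaged 1.87 ± 0.208 FPKM in cold and 1.81 ± 0.108 FPKM in control leaves of Dongnong422 (SD, n = 3 libraries each). Those of Kongyu131 averaged 1.69 ± 0.211 FPKM in cold and 1.97 ± 0.179 FPKM in control leaves (SD, n = 3 libraries each).

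**Figure D1:**
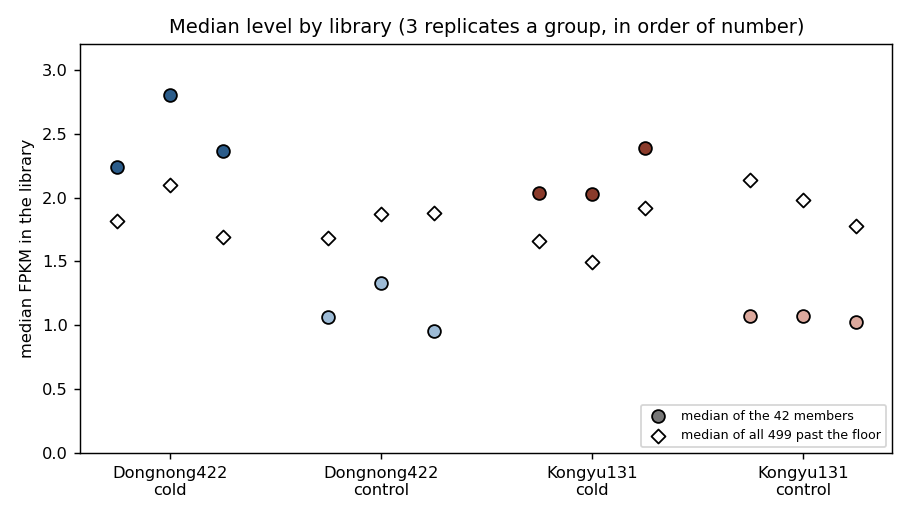
Median FPKM in each of the 12 libraries (filled circles, the 42 members; open diamonds, all 499 lncRNAs that passed the floor), by group and in order of replicate number. The circles lie between 2.03 and 2.80 FPKM in cold libraries and between 0.953 and 1.33 FPKM in control libraries, as the choice of members sets.

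The changes of the members were near 1 on the log2 scale in the median, and few exceeded 2. The median log2 change of the members was 1.05 in Dongnong422, with a range of 0.57 to 3.81, and 0.82 in Kongyu131, with a range of 0.55 to 5.26. The upper ends belong to LNC_000561 and LNC_001213, which are listed at 0 in every control of that cultivar, and depend on the 0.1 FPKM added. Over all 1441 lncRNAs the median log2 change was -0.15 in Dongnong422 and -0.09 in Kongyu131. Over the 499, members included, it was -0.08 in Dongnong422 and -0.20 in Kongyu131. The changes of the members are not centred on any of these medians. Changes of at least 1 in both cultivars were seen in 8 members, and of at least 2 in both in LNC_001213 alone. The change was larger in Dongnong422 for 27 members and in Kongyu131 for 15, a difference that is made of the values the rule used and was not tested. Among the 499, members included, 124 had a change of at least 0.5 in Dongnong422 and 101 in Kongyu131. The same rule turned round, with a change of -0.5 or below in both cultivars, gave 72 of the 499. That count is for the values as deposited and is not given for other scalings. Opposite changes of that size were found in 33 lncRNAs that were higher in cold in Dongnong422 and lower in Kongyu131, and in 20 of the other kind.

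**Figure D2:**
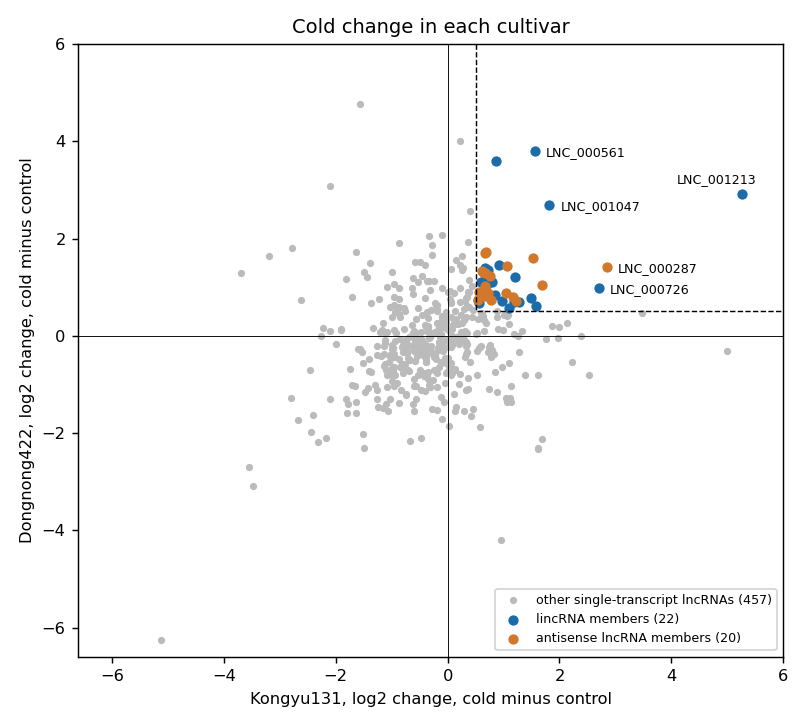
Log2 change, cold minus control, in Kongyu131 (horizontal axis) and in Dongnong422 (vertical axis) for the 499 lncRNAs past the floor (grey, 457 that are no members; blue, lincRNA members; orange, antisense members). Dashed lines mark the limit of 0.5, and the 42 members fill the corner above and right of them, with LNC_001213 farthest to the right at 5.26.

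Cold and control libraries were fully apart for some members and overlapped for others. In 28 members the 3 cold libraries all lay above the 3 controls in Dongnong422, against a background of 12.1% of the 1441 lncRNAs. In Kongyu131 this held for 22 members, against a background of 8.12%, and in both cultivars at once for 17 members, against 2.29%. Among the 499, members included, the shares were 16.4% in Dongnong422, 11.4% in Kongyu131 and 4.01% in both. The rule used the same contrast, so these counts only describe the members. In 11 members the groups were apart in Dongnong422 only, in 5 in Kongyu131 only and in 9 in neither. Of the 499, members included, 82 had all cold libraries above the controls in Dongnong422, 57 in Kongyu131 and 20 in both. For 380 of the 499 this held in neither cultivar.

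**Figure D3:**
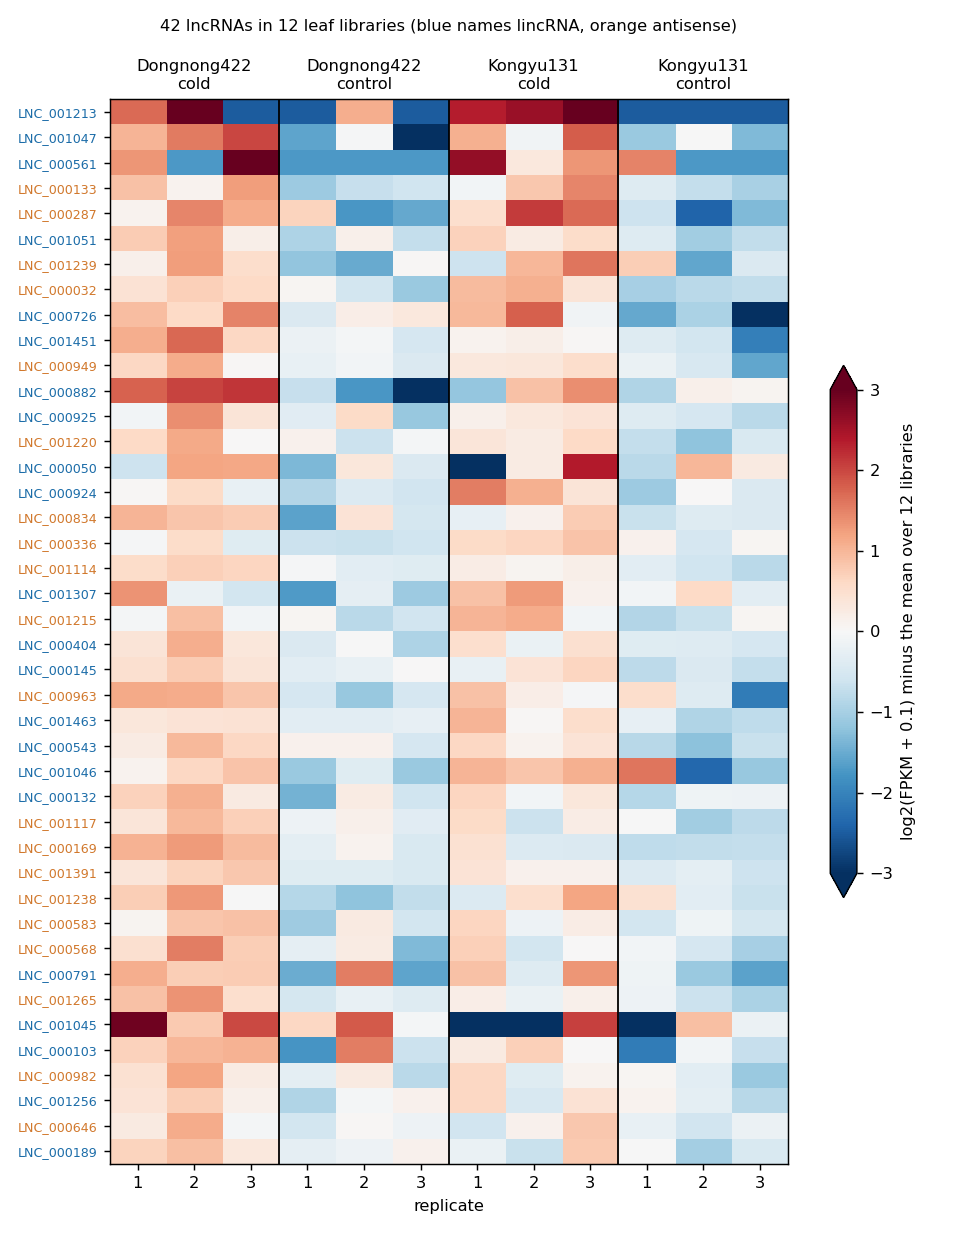
Level of each of the 42 members (rows, in order of the smaller of its changes in the 2 cultivars; blue names are lincRNAs, orange names antisense lncRNAs) in the 12 libraries (columns), as log2(FPKM + 0.1) minus its mean over the 12 libraries. Red is above and blue below that mean, and the blue cells in rows LNC_001213 and LNC_000561 are libraries in which the lncRNA is listed at 0.

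Antisense lncRNAs made up 8 of the 17 members whose groups were apart in both cultivars. LNC_000133, an antisense lncRNA of locus XLOC_006585, had 7.74, 4.46 and 9.98 FPKM in cold Dongnong422 leaves, against 1.88, 2.53 and 2.72 in control leaves. LNC_000133 in Kongyu131 had 3.88, 7.35 and 11.5 FPKM in cold leaves, against 3.17, 2.50 and 2.07 in control leaves. In each cultivar every cold library was above every control, although cold libraries differed among themselves by more than the controls did. Its means were 7.40 ± 2.78 FPKM in cold and 2.38 ± 0.439 FPKM in control leaves of Dongnong422, and 7.59 ± 3.83 FPKM in cold and 2.58 ± 0.552 FPKM in control leaves of Kongyu131 (SD, n = 3 each), a 3.03-fold and a 2.87-fold change of the means plus 0.1 FPKM.

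LNC_000032, an antisense lncRNA of locus XLOC_001658, had 2.78, 3.37 and 3.09 FPKM in cold Dongnong422 leaves, against 2.11, 1.35 and 0.875 in control leaves. LNC_000032 in Kongyu131 had 3.99, 4.37 and 2.69 FPKM in cold leaves, against 0.967, 1.11 and 1.17 in control leaves. Its log2 changes were 1.04 in Dongnong422 and 1.68 in Kongyu131, and the controls of Kongyu131 lay close together. LNC_001391, an antisense lncRNA of locus XLOC_054150, had 5.85, 7.30 and 8.04 FPKM in cold Dongnong422 leaves, against 3.48, 3.48 and 3.28 in control leaves. LNC_001391 in Kongyu131 had 6.09, 4.95 and 4.92 FPKM in cold leaves, against 3.35, 3.68 and 2.88 in control leaves. This lncRNA was steady within each group, with means of 7.06 ± 1.12 FPKM in cold and 3.41 ± 0.118 FPKM in control leaves of Dongnong422 (SD, n = 3 each). LNC_001114, an antisense lncRNA of locus XLOC_042871, had 4.86, 5.45 and 5.16 FPKM in cold Dongnong422 leaves, against 3.18, 2.62 and 2.53 in control leaves. LNC_001114 in Kongyu131 had 3.85, 3.47 and 3.73 FPKM in cold leaves, against 2.62, 2.11 and 1.84 in control leaves. LNC_001114 had the smallest replicate SD of the members, 0.161 on the log2 scale pooled over the 4 groups, and log2 changes of 0.87 in Dongnong422 and 0.72 in Kongyu131.

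LNC_000949, an antisense lncRNA of locus XLOC_034840, had 2.18, 3.12 and 1.41 FPKM in cold Dongnong422 leaves, against 1.18, 1.31 and 1.00 in control leaves. LNC_000949 in Kongyu131 had 1.74, 1.78 and 2.05 FPKM in cold leaves, against 1.19, 0.966 and 0.406 in control leaves. All cold libraries were above the controls, by a smaller margin in Dongnong422 than in Kongyu131. LNC_000834, an antisense lncRNA of locus XLOC_031388, had 3.14, 2.74 and 2.61 FPKM in cold Dongnong422 leaves, against 0.424, 2.03 and 1.02 in control leaves. LNC_000834 in Kongyu131 had 1.24, 1.64 and 2.60 FPKM in cold leaves, against 0.906, 1.13 and 1.08 in control leaves. The controls of Dongnong422 were spread widely here, and those of Kongyu131 were close together. LNC_000336, an antisense lncRNA of locus XLOC_014521, had 2.62, 4.0 and 2.06 FPKM in cold Dongnong422 leaves, against 1.69, 1.64 and 1.75 in control leaves. LNC_000336 in Kongyu131 had 4.04, 4.21 and 4.89 FPKM in cold leaves, against 2.92, 1.86 and 2.79 in control leaves. The values of LNC_000336 in Dongnong422 were below those in Kongyu131 in both treatments, without overlap. LNC_000169, an antisense lncRNA of locus XLOC_008315, had 4.17, 4.89 and 3.84 FPKM in cold Dongnong422 leaves, against 1.57, 2.12 and 1.39 in control leaves. LNC_000169 in Kongyu131 had 2.73, 1.44 and 1.42 FPKM in cold leaves, against 1.12, 1.12 and 1.16 in control leaves. LNC_000169 was higher in Dongnong422, and its log2 changes were 1.29 in Dongnong422 and 0.67 in Kongyu131.

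**Figure D4:**
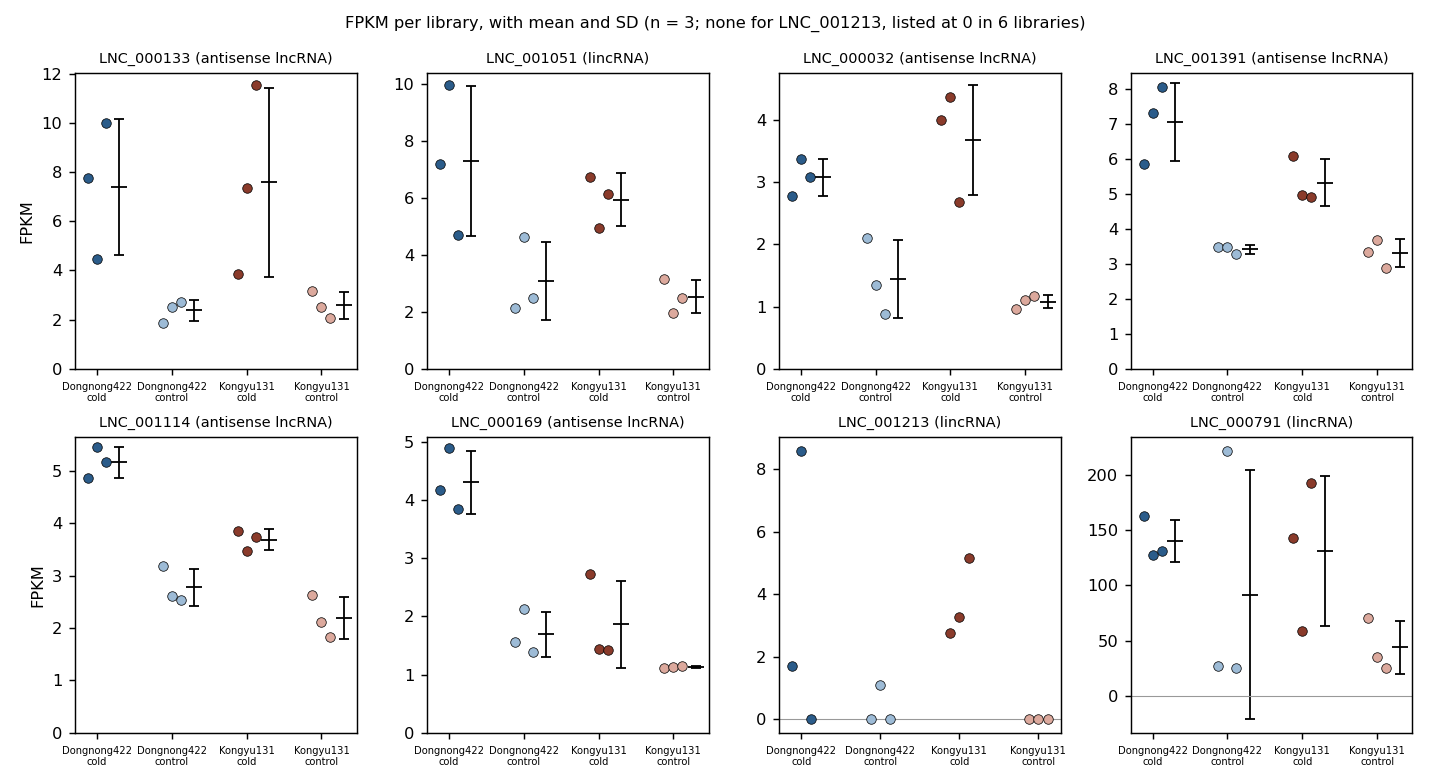
FPKM of 8 members in each library (points), with the mean and SD of the group (bars, n = 3) except for LNC_001213, which is listed at 0 in 6 libraries. In the first 6 panels the cold points of each cultivar lie above its control points, whereas LNC_000791 has a Dongnong422 control at 222 FPKM, above all of its cold libraries.

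LincRNAs made up the other 9 of the 17. LNC_001051, a lincRNA of locus XLOC_039656, had 7.17, 9.95 and 4.70 FPKM in cold Dongnong422 leaves, against 2.14, 4.63 and 2.47 in control leaves. LNC_001051 in Kongyu131 had 6.74, 4.92 and 6.14 FPKM in cold leaves, against 3.14, 1.97 and 2.47 in control leaves. Its fold changes, 2.32 in Dongnong422 and 2.30 in Kongyu131, were nearly alike, and in Dongnong422 the lowest cold library was barely above the highest control. LNC_000726, a lincRNA of locus XLOC_027594, had 1.71, 1.34 and 2.56 FPKM in cold Dongnong422 leaves, against 0.611, 0.990 and 1.09 in control leaves. LNC_000726 in Kongyu131 had 1.78, 3.19 and 0.784 FPKM in cold leaves, against 0.230, 0.399 and 0 in control leaves. The change was larger in Kongyu131, where 1 control is listed at 0, and the log2 changes were 0.99 in Dongnong422 and 2.71 in Kongyu131.

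LNC_001451, a lincRNA of locus XLOC_056898, had 1.77, 2.80 and 1.24 FPKM in cold Dongnong422 leaves, against 0.676, 0.742 and 0.519 in control leaves. LNC_001451 in Kongyu131 had 0.844, 0.897 and 0.794 FPKM in cold leaves, against 0.578, 0.504 and 0.111 in control leaves. LNC_001451 was about the same in the 3 cold Kongyu131 libraries, while its cold Dongnong422 libraries differed by more. LNC_000924, a lincRNA of locus XLOC_034407, had 1.70, 2.52 and 1.41 FPKM in cold Dongnong422 leaves, against 0.846, 1.22 and 1.08 in control leaves. LNC_000924 in Kongyu131 had 4.94, 3.54 and 2.18 FPKM in cold leaves, against 0.715, 1.67 and 1.20 in control leaves. Here the larger change was in Kongyu131, with a log2 change of 1.50, against 0.78 in Dongnong422. LNC_000145, a lincRNA of locus XLOC_007371, had 2.29, 2.80 and 2.15 FPKM in cold Dongnong422 leaves, against 1.28, 1.38 and 1.65 in control leaves. LNC_000145 in Kongyu131 had 1.38, 2.21 and 2.60 FPKM in cold leaves, against 0.891, 1.18 and 0.947 in control leaves. The cold and control values of LNC_000145 were apart by a small step in each cultivar. LNC_000404, a lincRNA of locus XLOC_016086, had 1.51, 2.52 and 1.45 FPKM in cold Dongnong422 leaves, against 0.810, 1.11 and 0.542 in control leaves. LNC_000404 in Kongyu131 had 1.64, 0.977 and 1.62 FPKM in cold leaves, against 0.856, 0.843 and 0.771 in control leaves. All 3 Kongyu131 controls of LNC_000404 were within a narrow range below the cold libraries.

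The remaining lincRNAs with groups apart in both cultivars were LNC_001463, LNC_000543 and LNC_000132. LNC_001463, a lincRNA of locus XLOC_057455, had 1.75, 1.82 and 1.85 FPKM in cold Dongnong422 leaves, against 1.06, 1.06 and 1.12 in control leaves. LNC_001463 in Kongyu131 had 2.85, 1.38 and 1.99 FPKM in cold leaves, against 1.12, 0.679 and 0.759 in control leaves. In Dongnong422 LNC_001463 had the tightest groups of these 3, at 1.80 ± 0.0521 FPKM in cold and 1.08 ± 0.0315 FPKM in control leaves (SD, n = 3 each). LNC_000543 had log2 changes of 0.69 in Dongnong422 and 1.28 in Kongyu131, and LNC_000132 of 1.15 in Dongnong422 and 0.67 in Kongyu131.

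In 11 members the cold libraries were all above the controls in Dongnong422, whereas the groups overlapped in Kongyu131. LNC_001047, a lincRNA of locus XLOC_039618, had 1.90, 2.80 and 3.85 FPKM in cold Dongnong422 leaves, against 0.225, 0.848 and 0 in control leaves. LNC_001047 in Kongyu131 had 1.94, 0.806 and 3.36 FPKM in cold leaves, against 0.351, 0.873 and 0.288 in control leaves. A single cold Kongyu131 library of LNC_001047 lay below the highest control, and all others were above. LNC_000882, a lincRNA of locus XLOC_033483, had 5.27, 6.27 and 6.79 FPKM in cold Dongnong422 leaves, against 0.868, 0.364 and 0 in control leaves. LNC_000882 in Kongyu131 had 0.605, 2.78 and 4.05 FPKM in cold leaves, against 0.734, 1.64 and 1.57 in control leaves. In Dongnong422 LNC_000882 was below 1 FPKM in all controls, and in Kongyu131 1 cold library was below all controls. Its log2 changes were 3.60 in Dongnong422 and 0.87 in Kongyu131.

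The next most abundant members after LNC_000791, the antisense lncRNAs LNC_001265 and LNC_001117, belonged to these 11 as well. LNC_001265, an antisense lncRNA of locus XLOC_050050, had 9.91, 13.8 and 7.59 FPKM in cold Dongnong422 leaves, against 3.68, 4.53 and 4.04 in control leaves. LNC_001265 in Kongyu131 had 6.13, 4.63 and 5.94 FPKM in cold leaves, against 4.78, 3.37 and 2.70 in control leaves. In Kongyu131 1 cold library of LNC_001265 was below 1 control. LNC_001117, an antisense lncRNA of locus XLOC_042960, had 6.63, 10.3 and 8.50 FPKM in cold Dongnong422 leaves, against 4.58, 5.69 and 4.06 in control leaves. LNC_001117 in Kongyu131 had 7.66, 3.27 and 5.97 FPKM in cold leaves, against 5.12, 2.43 and 2.95 in control leaves. LNC_001117 overlapped likewise in Kongyu131, with log2 changes of 0.81 in Dongnong422 and 0.67 in Kongyu131.

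LNC_001238 and LNC_001239, antisense lncRNAs with consecutive numbers, were both clearer in Dongnong422. LNC_001238, an antisense lncRNA of locus XLOC_048882, had 1.49, 2.24 and 0.838 FPKM in cold Dongnong422 leaves, against 0.424, 0.313 and 0.466 in control leaves. LNC_001238 in Kongyu131 had 0.618, 1.24 and 2.07 FPKM in cold leaves, against 1.21, 0.665 and 0.493 in control leaves. Its Dongnong422 controls were close together, below all cold values there. LNC_001239, an antisense lncRNA of locus XLOC_048884, had 0.658, 1.53 and 0.882 FPKM in cold Dongnong422 leaves, against 0.201, 0.141 and 0.599 in control leaves. LNC_001239 in Kongyu131 had 0.341, 1.26 and 1.99 FPKM in cold leaves, against 1.04, 0.132 and 0.403 in control leaves. In both, Kongyu131 cold replicate 1 was below Kongyu131 control replicate 1. Their deviations from the group means, as log2 values, correlated at r = 0.75 over the 12 libraries, which share library and depth, while the other 4 pairs of members with consecutive numbers had r between -0.49 and 0.18. Whether these neighbours in number are neighbours in the genome is not given in the tables.

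The other members apart in Dongnong422 only were LNC_000963, LNC_001046, LNC_000568, LNC_001256 and LNC_000189. The antisense lncRNA LNC_000963 had 2.17, 2.14 and 1.75 FPKM in cold and 0.634, 0.370 and 0.630 FPKM in control leaves of Dongnong422. The lincRNA LNC_001046 had 2.90, 2.54 and 3.00 FPKM in cold and 4.40, 0.191 and 0.578 FPKM in control leaves of Kongyu131. Replicate 1 of those controls was higher than every cold library. LNC_000568, an antisense lncRNA, had log2 changes of 1.31 in Dongnong422 and 0.64 in Kongyu131.

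In 5 members the groups were apart in Kongyu131 only. LNC_001213, a lincRNA of locus XLOC_047408, had 1.71, 8.59 and 0 FPKM in cold Dongnong422 leaves, against 0, 1.10 and 0 in control leaves. LNC_001213 in Kongyu131 had 2.76, 3.26 and 5.16 FPKM in cold leaves, against 0, 0 and 0 in control leaves. LNC_001213 is listed at 0 in all 3 Kongyu131 controls, so its change there depends on the 0.1 FPKM added and no fold is given. Among the cold Dongnong422 libraries it ranged from 0 to the highest value of its row. LNC_000287, an antisense lncRNA of locus XLOC_013025, had 0.466, 1.37 and 1.05 FPKM in cold Dongnong422 leaves, against 0.749, 0.0575 and 0.0818 in control leaves. LNC_000287 in Kongyu131 had 0.650, 2.16 and 1.62 FPKM in cold leaves, against 0.243, 0 and 0.112 in control leaves. The change of LNC_000287, an antisense lncRNA of low level, was 2.85 in Kongyu131, with controls near or at 0, and 1.42 in Dongnong422, where 1 control lay within the cold range.

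LNC_001220, an antisense lncRNA, and the lincRNAs LNC_000925 and LNC_000103 were the others of that kind. LNC_001220 had 2.94, 2.69 and 3.46 FPKM in cold and 1.35, 0.919 and 1.61 FPKM in control leaves of Kongyu131. LNC_000925 had 0.732, 0.834 and 0.901 FPKM in cold and 0.479, 0.433 and 0.331 FPKM in control leaves of Kongyu131. LNC_000103 in Dongnong422 had 2.44, 3.01 and 3.15 FPKM in cold and 0.361, 4.45 and 0.902 FPKM in control leaves. Its Dongnong422 control replicate 2 was above all 3 cold libraries.

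In 9 members the groups overlapped in both cultivars, and some of these passed the rule on few libraries. LNC_000791, a lincRNA of locus XLOC_029637, had 162, 128 and 130.7 FPKM in cold Dongnong422 leaves, against 27.2, 222 and 25.5 in control leaves. LNC_000791 in Kongyu131 had 142, 58.4 and 193 FPKM in cold leaves, against 70.8, 35.3 and 25.1 in control leaves. LNC_000791 was by far the most abundant member, with a mean of 101.7 FPKM and rank 20 among all 1485 transcripts. Its Dongnong422 control replicate 2 was the highest of all 12 libraries, and without that library its other controls there lay well below the cold values. LNC_000561, a lincRNA of locus XLOC_021633, had 0.733, 0 and 3.17 FPKM in cold Dongnong422 leaves, against 0, 0 and 0 in control leaves. LNC_000561 in Kongyu131 had 1.97, 0.316 and 0.727 FPKM in cold leaves, against 0.826, 0 and 0 in control leaves. LNC_000561 is listed at 0 in 6 libraries, all 3 Dongnong422 controls among them, so no fold is given for that cultivar.

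LNC_001045, a lincRNA of locus XLOC_039598, had 9.17, 2.02 and 4.79 FPKM in cold Dongnong422 leaves, against 1.80, 4.34 and 1.08 in control leaves. LNC_001045 in Kongyu131 had 0, 0 and 4.97 FPKM in cold leaves, against 0, 2.20 and 0.998 in control leaves. LNC_001045 is listed at 0 in 2 cold Kongyu131 libraries, and a single library carried its cold mean in that cultivar. LNC_000050, a lincRNA of locus XLOC_003011, had 0.585, 2.30 and 2.24 FPKM in cold Dongnong422 leaves, against 0.313, 1.24 and 0.681 in control leaves. LNC_000050 in Kongyu131 had 0, 1.16 and 5.42 FPKM in cold leaves, against 0.506, 2.00 and 1.17 in control leaves. In Kongyu131 LNC_000050 spanned the whole of its range within the cold group. The remaining members of this kind were LNC_001307, LNC_001215, LNC_000583, LNC_000982 and LNC_000646, with log2 changes between 0.55 and 1.35.

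The replicate spread of lincRNAs was above that of antisense lncRNAs, among the members and among the 499 alike, and the difference was not tested. The median replicate SD, on the log2(FPKM + 0.1) scale and pooled over the 4 groups, was 0.655 for the lincRNAs and 0.483 for the antisense lncRNAs of the members, and 0.525 for the lincRNAs and 0.436 for the antisense lncRNAs of the 499. It was 0.536 for all members, against 0.498 for the 499. Of the 8 members listed at 0 in at least 1 library, 7 were lincRNAs, against 29 of 38 (76.3%) among the 499. The median level was 1.79 FPKM for the lincRNAs and 2.28 FPKM for the antisense lncRNAs, and the part of level in the spread was not tested.

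A library of each Dongnong422 group stood above its replicates for many members. Dongnong422 cold replicate 2 held the highest value of its group for 27 of the 42 members (64.3%), against 37.5% of the 499. Dongnong422 control replicate 2 did so for 25 members (59.5%), against 41.3% of the 499. Both shares of the members come from values the rule used. Without that cold library 34 of the 42 members passed the rule, and without that control library all 42 did. These libraries had the lowest relative depths of their groups, at 0.732 and 0.699, and the part of depth in this was not tested. In every group, the library of lowest depth was the one most often highest among the 499. The part of depth in that was not tested either. Depth was estimated from low FPKM values of the same libraries, so it is not independent of the levels compared here. Kongyu131 cold replicate 3, at a depth of 0.796, was highest for 42.9% of the members, against 53.1% of the 499, and Kongyu131 control replicate 1, at 0.656, for 54.8%, against 52.5%. When each of the 12 libraries was left out in turn, 14 members passed the rule every time, and 12 of those were among the 17 with groups apart in both cultivars. LNC_001256 passed least often, in 8 of the 12 cases.

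Some lncRNAs lay close to the limit of 0.5 on either side. Just inside were LNC_000189, LNC_000646 and LNC_001256, whose smaller log2 changes, all in Kongyu131, were 0.55, 0.55 and 0.56. Just outside were LNC_000666, LNC_000358 and LNC_000523, with smaller changes of 0.50, 0.48 and 0.48, the first of them under 0.5 only in the fourth decimal.

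The difference between cultivars, averaged over the treatments, was tested. In this balanced design it is orthogonal to, so not set by, the cold contrasts of the log2 values. The rule used logs of mean FPKM and a floor in each cultivar, so the cultivar difference is not fully free of the rule. It was fitted with limma on log2(FPKM + 0.1) over the 1441 lncRNAs, all 42 members among them, and p-values were adjusted over all 1441 by the Benjamini-Hochberg method. Of the members 1 was called at an adjusted p under 0.05, which is 2.38%, against a background of 17.9% of the 1441 and 7.21% of the 499. The floor of 0.5 FPKM in each cultivar already leaves out lncRNAs near 0 in either cultivar, so the share among the 499 is the closer one. At an unadjusted p under 0.05 there were 9 members, which is 21.4%, against 18.6% of the 499.

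The called member was the antisense LNC_000169, which was higher in Dongnong422 by 0.87 ± 0.201 on the log2 scale (SE, limma adjusted p = 0.00881). All 3 cold Dongnong422 libraries were above all 3 cold Kongyu131 libraries, and all 3 Dongnong422 controls were above all 3 Kongyu131 controls. It was called under every one of the 20 alternatives run, with differences between 0.62 and 1.02 and limma adjusted p between 0.00178 and 0.0296.

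Of the members that missed the threshold, LNC_001045 had the largest difference, 2.70 ± 1.06 (SE, limma adjusted p = 0.116), with libraries at 0 in Kongyu131. LNC_001451 and LNC_000336 came nearest to it. The difference was 0.89 ± 0.307 for LNC_001451 (SE, limma adjusted p = 0.0730) and -0.58 ± 0.195 for LNC_000336 (SE, limma adjusted p = 0.0670). Leaving out single libraries brought 1 or 2 further members past the threshold. They were LNC_001307 without Dongnong422 cold replicate 1, LNC_000336 without Dongnong422 cold replicate 2 or Kongyu131 control replicate 2, LNC_001045 without Kongyu131 cold replicate 3, and LNC_001451 and LNC_001265 without Kongyu131 control replicate 1. Estimates were above 0, so higher in Dongnong422, for 30 members (71.4%), against 53.1% of the 499, and below 0 for 12 members, the lowest being -0.82 ± 0.379 for LNC_001307. The median estimate was 0.22 for the members and 0.04 for the 499, and this difference was not tested.

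**Figure D5:**
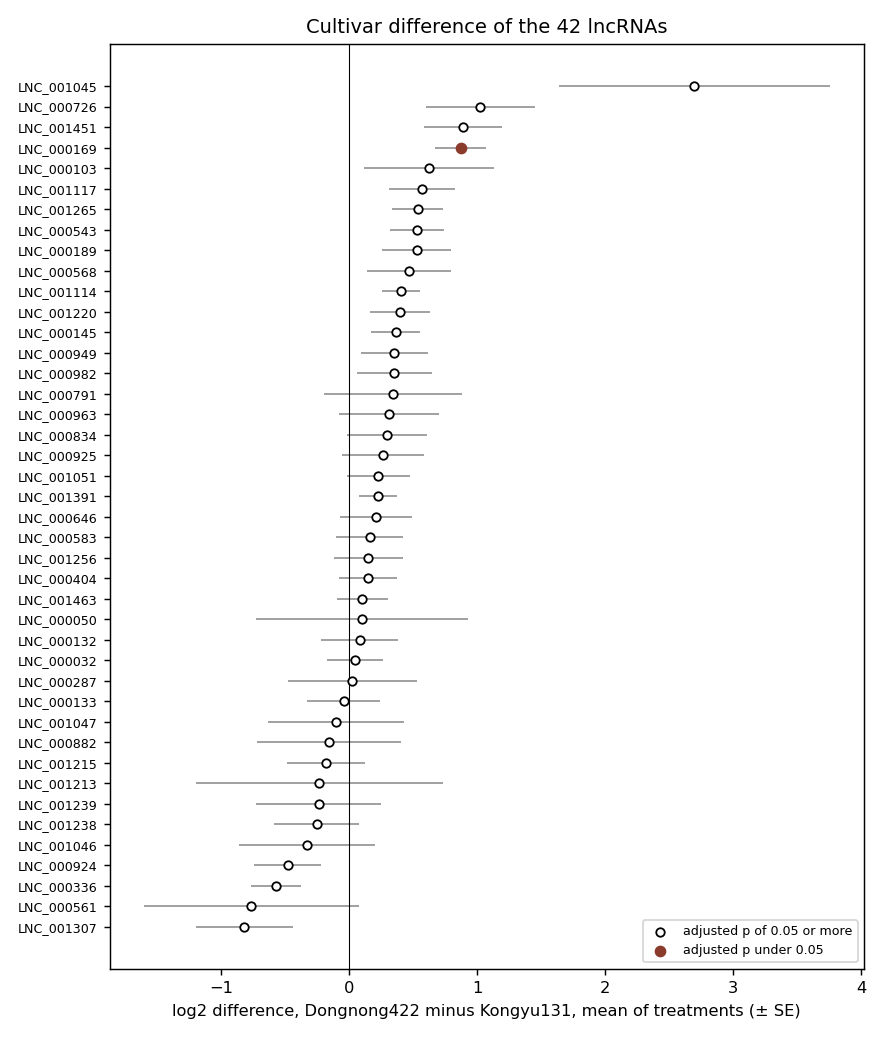
Log2 difference, Dongnong422 minus Kongyu131, averaged over cold and control, for each of the 42 members (points, with the limma SE as bars; filled point, adjusted p under 0.05). LNC_000169 is the filled point at 0.87, while LNC_001045 lies farthest to the right at 2.70 with a wide SE.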

How the data were processed

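LncRNAs were measured in 12 leaf libraries, 4 groups of 3, and groups were taken from the labels. Per the labels' protocols, ribosomal RNA was removed and directional libraries were made. The submitters' processing notes name TopHat2 (2.0.9) and Cufflinks (2.1.1). The genome build, annotation and use of strand in assigning reads were not given in the sources used here. Without strand, an antisense value could include fragments of the opposite gene. The authors deposited an FPKM value per transcript and library, and a 0 can be a failed estimate.

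Values were used as deposited, and no count model was applied. The members and lists were chosen with earlier results of these data known. The cultivar contrast was fitted with limma 3.58.1 in R 4.3.3 on log2(FPKM + 0.1) with 4 group means over 12 libraries, which share an estimate of spread, and with a variance trend, after a filter at a mean of 0.1 FPKM. The log2 scale with 0.1 FPKM added understates changes of low lncRNAs. The fit was tested on simulated data. Relative depth came from the ratios between libraries of low values, taken to be whole multiples of a fragment's worth in single-transcript loci. The most frequent ratio, to a tolerance of 0.1%, held at most 6.98% of the low-value ratios of a library pair. In 45 of 66 library pairs the best ratio lay within 0.02 on the log2 scale of the joint solution, and fragment numbers of the members were not recovered, so no counting interval is given.

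Named were members with the 8 largest smaller changes, the 5 highest levels, 12 with groups apart in both cultivars, those called for cultivar, the 3 with the largest difference of changes each way, 3 on each side of the limit and 5 listed at 0. The others were named after their values were seen. Alternatives were other pseudocounts, floors, limits, filters and scalings, no variance trend, a block for replicate number and leaving out each library.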

Additional observations from a re-analysis of the deposited data

How the results depend on the processing

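The 42 members depended on the settings of the rule. With 1 FPKM added in place of 0.1 there were 21, with a limit of 1 on the change 8, and with quantile normalization 67. Median-ratio scaling gave 60, a floor of 0.25 FPKM 60 and a floor of 1 FPKM 35. All 42 still passed under both scalings. Leaving out a library in turn gave 36 to 53. The median change of the members was 0.67 in Dongnong422 and 0.55 in Kongyu131 with 1 FPKM added, and in Kongyu131 0.94 with median-ratio scaling and 1.11 with quantile normalization. Without single libraries it was 0.93 to 1.40 in Dongnong422 and 0.77 to 1.01 in Kongyu131. Between 17 and 22 members then had groups apart in both cultivars, a count that cannot fall below 17 when a library is left out. Under the scalings by median ratio and quantiles, 21 and 19 members had groups apart in both. With 1 FPKM added, every log2 change is smaller in size by arithmetic. Over the 1441 lncRNAs, the median log2 change as deposited was -0.15 in Dongnong422 and -0.09 in Kongyu131. It was -0.0007 and 0 after median-ratio scaling, and 0 in each after quantile normalization. The causes of the other shifts were not tested.

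For the cultivar difference, 2 members were called with 1 FPKM added, with a filter at 1 FPKM, with quantile normalization and with the replicate block, and 1 to 3 without single libraries, against 1 in the fit as reported. Of all lncRNAs 135 were called with the filter at 1 FPKM, which left 559 to test, and 230 to 249 without single libraries, against 258. LNC_000169 lay between 0.79 and 1.02 without single libraries. No sign that the replicate numbers pair the samples was seen, but 3 libraries a group cannot exclude it. Over 18 pairs with the same number the correlation of deviations ran from -0.11 to 0.08, and 0 were over 0.1. The own number correlated best in 10 of 36 combinations, each a choice among 3 libraries. The replicate block may thus carry no more than a shared number. The fragment numbers behind the members below 1 FPKM and those listed at 0 are unknown, so their counting error could not be given.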
